A study of Mus musculus with 8 samples.

Results

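The genes of the skeletal muscle triad and of excitation-contraction coupling were followed as a group of 10: Cacna1s, Cacng1, Cacnb1 and Stac3 of the voltage sensor, Ryr1 of the release channel, the junctophilins Jph1 and Jph2, and the triad proteins Trdn, Asph and Sypl2. All probe sets that the array annotation paired with exactly 1 of these symbols were taken, which gave 28 of the 45101 probe sets on the array. A probe set is a group of short oligonucleotides that together read 1 stretch of a transcript. Quadriceps muscle of adult male C57Bl/10 mice was profiled on 8 Affymetrix whole-genome mouse arrays, 4 per group. Control mice were kept in room air for 2 weeks. Hypoxia mice were in a closed chamber whose oxygen was lowered from 21% to 8% during the first week and then held at 8% for 7 days, so the chamber and the low oxygen cannot be told apart. No age beyond adult and no genotype beyond the strain was given, and nothing in the labels ties each sample to its own animal, so p-values measure the spread between these samples, which may be technical.

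In skeletal muscle the action potential travels inward along T-tubules, which meet the sarcoplasmic reticulum at triads. There the voltage-sensing calcium channel of the T-tubule membrane, whose pore is encoded by Cacna1s, opens the ryanodine receptor, the release channel of the reticulum encoded by Ryr1, and the calcium set free starts contraction. Cacnb1 encodes the beta subunit and Cacng1 the gamma subunit of the voltage sensor, and Stac3 is an adaptor that the sensor needs in order to open the release channel. Junctophilins hold the T-tubule and reticulum membranes together, triadin (Trdn) and junctin (a product of Asph) sit beside the release channel in the reticulum membrane, and Sypl2, also called mitsugumin 29, is a membrane protein of the triad.

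After hypoxia, transcripts of most of these genes were lower in quadriceps. The falls were steepest for Sypl2 (11.6-fold), Stac3 (8.39-fold), Cacnb1 (7.39-fold on its brightest probe set), Jph2 (4.60-fold on its brightest probe set) and Cacna1s (3.23-fold). Trdn fell 2.00-fold and Jph1 1.44-fold on their brightest probe sets. Cacng1 went the other way and rose 1.88-fold. The brightest probe sets of Ryr1 and Asph did not pass the test.

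Of the 28 probe sets, 25 passed a filter that left out the 40% dimmest of the array (mean signal below about 90.2) and were tested. With limma and Benjamini-Hochberg adjustment over all 27022 probe sets tested, 13 of the 25 were lower, 1 was higher and 11 did not pass an adjusted p of 0.05. Over the whole array 16.4% of tested probe sets were called lower and 12.5% higher, against 52.0% lower and 1 higher of these 25. After median centring of the arrays, which moved the share of higher calls among all calls from 43.2% to 54.8%, 12 of the 25 were lower and 1 higher. In 13 of the 25 every hypoxia array lay below every control array, against 17.0% of all tested probe sets, and in 1 every hypoxia array lay above, against 13.1%. The median log2 change of the 25 was -0.53, beside -0.04 for all tested probe sets. By the brightest probe set of each gene 7 of the 10 were lower and 1 higher, where 17.8% of all 13257 genes were lower and 14.0% higher. At least 1 probe set fell for 9 of the 10 genes, where 22.5% of all genes had such a probe set and 30.7% of those with at least 2 tested. For 5 of those 9 another probe set did not pass. Probe sets of 1 gene share its transcripts and are not independent. The 10 genes were chosen with earlier results of these data known, so these shares describe the group and do not test it. The 3 probe sets below the filter were 1 of Cacnb1 (signals 24.2 to 60.5) and 2 of Sypl2 (6.00 to 121), and their groups overlapped.

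Facts of the arrays that touch these values are as follows. Signal at the 3' end of Gapdh over that at its 5' end, a gauge of RNA integrity, stood at 3.44 in hypoxia 1, while every other array lay between 0.776 and 0.874. For beta-actin the gauge stood at 2.53 in hypoxia 1, with the remaining hypoxia arrays from 1.40 to 1.59 and control arrays from 1.09 to 1.25, so all hypoxia arrays exceeded all control arrays. The highest signal of an array was 42966 to 63466 in hypoxia and 63939 to 75518 in control, and the CreX spike-in read 24771 to 28087 in hypoxia 2 to 4, 39750 in hypoxia 1 and 33909 to 39355 in control. The part of RNA integrity and of these signal ranges in the results was not tested. All 13 probe sets that fell also fell without hypoxia 1, when 14 did. Among 9 markers of skeletal muscle fibres, all measured, 7 fell and none rose (median log2 change -0.47), and their summed signal was 262463 to 364512 in hypoxia against 407615 to 477692 in control. In such bulk tissue fewer cells of a type and less RNA per cell cannot be told apart. The 5 slow fibre markers gave no call, with a summed signal of 8690 to 11143 in control and 4171 to 21239 in hypoxia. All 4 fibroblast markers and both tested adipocyte markers fell. Of 6 macrophage markers 3 fell and 1 rose, 2 of 3 tested neutrophil markers rose (summed signal of the 4 measured 354 to 745 in control and 2737 to 5258 in hypoxia), and none of 4 endothelial markers passed. For scale, of all 13257 genes read by their brightest probe set 17.8% were lower and 14.0% higher. The part of cell composition in the results was not tested.

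Of the genes whose transcripts changed, RefSeq promoter windows of GRCm38.p6 were at hand for 5 (Ryr1, Cacna1s, Cacnb1, Jph2 and Sypl2, with 7 start sites in all), and 3 of them are shown because they belong to the pore and release channel of the coupling complex and to a junctophilin whose probe sets all fell. The stretches end where the RefSeq gene begins and run 5' to 3' on the gene's strand. Capitals mark E-boxes (CANNTG, a general pattern that includes the letters bound by myogenic factors of the MyoD family). The Cacna1s stretch is chr1:136052561-136052805 on the plus strand, the Ryr1 stretch chr7:29125180-29125401 on the minus strand, and the Jph2 stretch chr2:163398050-163398243 on the minus strand.
Cacna1s: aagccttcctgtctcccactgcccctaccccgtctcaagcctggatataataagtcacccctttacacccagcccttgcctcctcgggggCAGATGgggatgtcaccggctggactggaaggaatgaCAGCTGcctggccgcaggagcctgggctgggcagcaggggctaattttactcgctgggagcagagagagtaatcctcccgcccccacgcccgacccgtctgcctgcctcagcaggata
Ryr1: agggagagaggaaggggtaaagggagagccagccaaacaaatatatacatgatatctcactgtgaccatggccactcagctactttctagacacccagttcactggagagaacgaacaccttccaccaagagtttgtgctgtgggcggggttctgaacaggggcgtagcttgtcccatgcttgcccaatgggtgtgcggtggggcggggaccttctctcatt
Jph2: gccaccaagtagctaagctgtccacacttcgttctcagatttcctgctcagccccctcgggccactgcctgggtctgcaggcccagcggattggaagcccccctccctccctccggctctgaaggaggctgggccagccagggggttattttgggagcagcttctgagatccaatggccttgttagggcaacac

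In the full 250 bases before each start, both strands searched, an E-box was found in 5 of the 7 windows, of Cacna1s, Cacnb1, Jph2 and Sypl2, against 66.2% of 32851 such windows of the mouse table. The windows of both Jph2 starts overlap and hold the same E-box, which is counted in each. It lies 29 bases before one start and 9 bases before the other, past the end of the stretch shown. The M-CAT letters CATTCC, bound by TEAD factors, were in 1 window, that of Cacna1s (12.6% of all windows), 130 bases before the start and next to the E-box CAGCTG at 123. The core letters of a hypoxia response element, ACGTG, were in 2 windows (16.6% of all) and GCGTG in 2 (28.2%). Sypl2 held ACGTG inside an E-box, CACGTG, which the 30 bases at chr3:108226657-108226686 on the minus strand show.
Sypl2: gcgatcgcacgcCACGTGactcggctgcca
The MEF2-type motif, CTA and TAG with 4 bases between them, was in none of the 7 windows and in 3.20% of all. These matches describe letters in the windows, not bound sites.

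**Figure D1:**
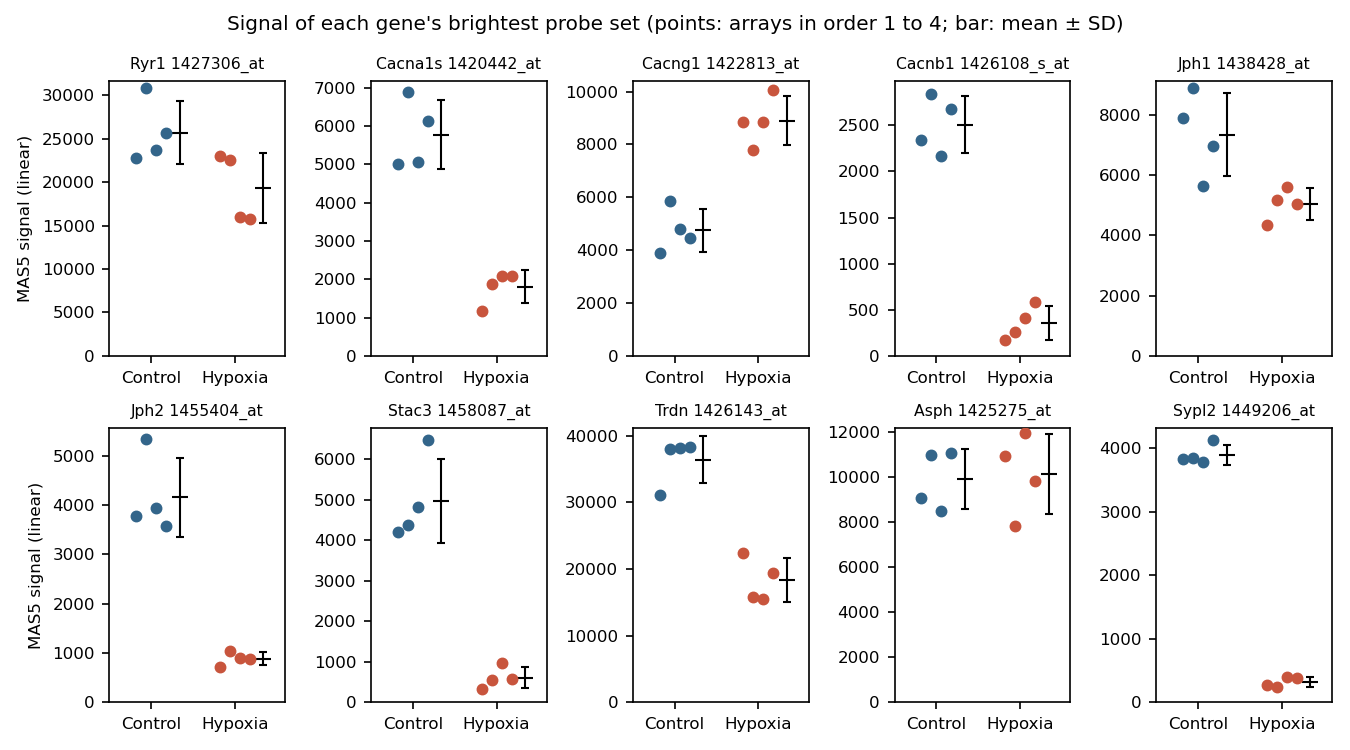
Deposited MAS5 signal (linear axis from 0) of the brightest probe set of each of the 10 genes, with 1 point per array and the mean ± SD of the 4 arrays beside it. Control and hypoxia points are apart for Cacna1s, Cacnb1, Jph1, Jph2, Stac3, Trdn and Sypl2 (hypoxia lower) and for Cacng1 (hypoxia higher), and overlap for Ryr1 and Asph.

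The voltage sensor was considered first. Cacna1s, read by 1 probe set (1420442_at), had control signals of 5022, 6877, 5056 and 6136 in arrays 1 to 4 and hypoxia signals of 1181, 1878, 2087 and 2080. Every hypoxia array was below the lowest control array, and hypoxia 1 was the lowest of all. The means were 5773 ± 900 and 1806 ± 428 (SD, n = 4 per group), a log2 change of -1.69 ± 0.20 (SE) with adjusted p = 5.08e-05 by limma. Without hypoxia 1 the change was -1.50 (adjusted p = 1.84e-05). The fall exceeded that of all but 2.80% of tested probe sets.

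Stac3 fell further than the pore subunit that it serves. Its 1 probe set (1458087_at) gave 4204, 4374, 4826 and 6458 in control and 336, 556, 969 and 575 in hypoxia. The groups were far apart, with hypoxia 1 again lowest. Mean signals were 4966 ± 1029 and 609 ± 263 (SD, n = 4 per group), a log2 change of -3.07 ± 0.26 (SE, adjusted p = 5.28e-06 by limma). Within arrays, Stac3 minus Cacna1s moved by -1.38 between the groups, and the hypoxia differences did not overlap the control ones (exact permutation test, two-sided, p = 0.0286, the smallest that 4 against 4 arrays allow, and 0.0365 after adjustment over the 23 pairs of probe sets compared).

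Cacnb1, whose product binds the intracellular side of the pore subunit, had 4 probe sets that did not move alike. The brightest (1426108_s_at) read 2342, 2841, 2168 and 2676 in control and 171, 261, 413 and 582 in hypoxia, without overlap. It fell by 2.89 ± 0.29 (SE) on the log2 scale (adjusted p = 1.97e-05 by limma), from 2507 ± 307 to 357 ± 180. A dimmer one (1440940_at) fell by 1.97 ± 0.45, from 374 ± 42.9 to 107 ± 82.8, also without overlap (adjusted p = 0.00554 by limma), and was lowest in hypoxia 1 at 27.3 and hypoxia 2 at 43.8. The third tested probe set (1425777_at) gave 159 to 281 in control and 188 to 281 in hypoxia, with a log2 change of -0.01 whose 95% interval ran from -0.52 to 0.51. The brightest probe set minus this one moved by -2.88 without overlap (exact permutation p = 0.0286, adjusted 0.0365), so the probe sets of Cacnb1 changed unequally. The suffix _s_at marks probe sets that may also bind transcripts of related genes. Within arrays, the brightest Cacnb1 probe set minus Cacna1s moved by -1.20, again with no overlap (exact permutation p = 0.0286, adjusted 0.0365). Cacna1s changed by -1.69, between the -1.97 of 1440940_at and the -0.01 of 1425777_at. The direction of this comparison therefore depends on the Cacnb1 probe set.

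Cacng1 was the exception among the sensor subunits. Its gamma subunit damps the current of the channel and is not needed for the sensor to open the release channel. The 1 probe set (1422813_at) read 3896, 5847, 4803 and 4448 in control and 8865, 7803, 8866 and 10073 in hypoxia. All hypoxia arrays were above all control arrays. The mean rose from 4749 ± 822 to 8902 ± 927 (SD, n = 4 per group), a log2 change of 0.91 ± 0.15 (SE, adjusted p = 7.15e-04 by limma), and was 0.91 without hypoxia 1 as well. Over the 19 alternative settings the change lay between 0.81 and 1.04. Set against Cacna1s within each array, Cacng1 was 2.60 log2 units higher in hypoxia than in control, the widest shift among the 8 pairs of different genes (exact permutation p = 0.0286, adjusted 0.0365). Cacng1 rose and Cacna1s fell, each without overlap, so the separation of this pair was fixed and its p-value adds nothing.

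Ryr1 was read by a pair of probe sets. The brighter (1427306_at) gave 22739, 30825, 23665 and 25618 in control and 23003, 22554, 16003 and 15796 in hypoxia. Hypoxia 1 lay above the lowest control array, so the groups overlapped, while hypoxia 3 and 4 were lower than the rest. The log2 change was -0.42 ± 0.17 (SE) with adjusted p = 0.0769 by limma, and -0.51 with adjusted p = 0.0275 without hypoxia 1. It also passed by limma with array weights (adjusted p = 0.0388) and after quantile normalization (adjusted p = 0.0485). The dimmer probe set (1457347_at) gave 6011, 7714, 7512 and 9309 in control and 3359, 4267, 3796 and 2981 in hypoxia, without overlap. It fell by 1.08 ± 0.17 (adjusted p = 4.11e-04 by limma), from 7636 ± 1349 to 3601 ± 555, and its change was -1.05 without hypoxia 1. The changes of these probe sets differed by 0.65 without overlap (exact permutation p = 0.0286, adjusted 0.0365). The brighter Ryr1 probe set minus Cacna1s moved by 1.27 in hypoxia, so that the pore of the sensor fell by more than this reading of the release channel (exact permutation p = 0.0286, adjusted 0.0365).

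Of the junctophilins, Jph2, known best for tying T-tubules to the reticulum in heart but present in skeletal muscle too, fell on both of its probe sets. The brighter (1455404_at) read 3774, 5330, 3938 and 3576 in control and 714, 1051, 902 and 885 in hypoxia, with no overlap and little spread among the hypoxia arrays. The fall was from 4154 ± 798 to 888 ± 138 (SD, n = 4 per group), a log2 change of -2.20 ± 0.17 (SE, adjusted p = 2.42e-06 by limma). The dimmer (1421453_at) fell by 0.74 ± 0.16, from 1154 ± 125 to 684 ± 83.0 (adjusted p = 0.00361 by limma). The changes of both differed by 1.46 (exact permutation p = 0.0286, adjusted 0.0365).

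Jph1 is the main junctophilin of skeletal muscle. Its brighter probe set (1438428_at) gave 7881, 8882, 5638 and 6980 in control and 4357, 5177, 5621 and 5044 in hypoxia. The groups nearly met at control 3 and hypoxia 3 but did not overlap. The log2 change was -0.53 ± 0.16 (SE, adjusted p = 0.0261 by limma), and the call was lost in 8 of the 19 alternatives, among them leaving out control 1, control 2, control 4, hypoxia 2 or hypoxia 4 (adjusted p = 0.0521 to 0.0882) and median centring (adjusted p = 0.0824). The dimmer (1421520_at) changed by -0.39 ± 0.22 with overlapping groups (adjusted p = 0.219 by limma). Within arrays, Jph1 minus Jph2 rose by 1.68 between control and hypoxia on their brighter probe sets, with hypoxia differences of 2.28 to 2.62 and control differences of 0.52 to 1.06 (exact permutation p = 0.0286, adjusted 0.0365). Against the dimmer Jph2 probe set, a pair added after the values were seen, Jph1 moved by 0.22 with overlapping groups (exact permutation p = 0.40), so the difference between both genes rests on the brighter Jph2 probe set.

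**Figure D2:**
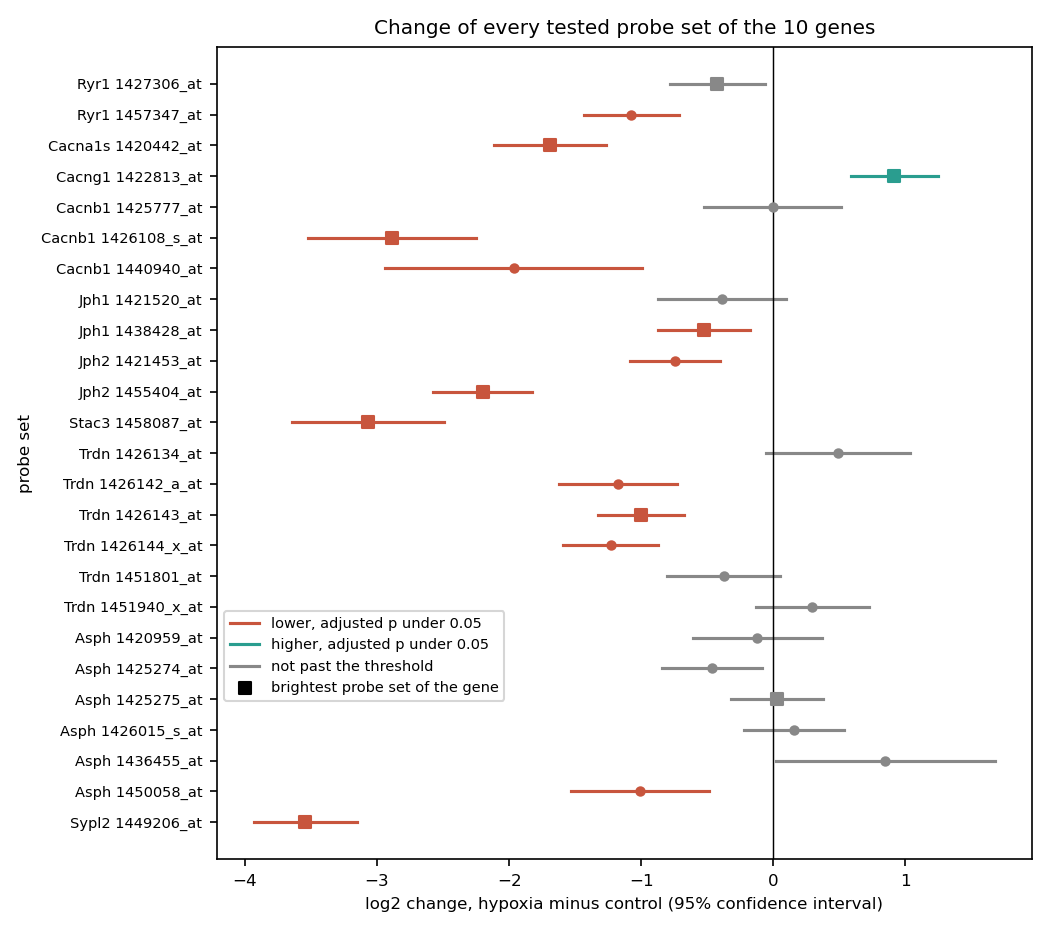
Log2 change, hypoxia minus control, with its 95% confidence interval for the 25 tested probe sets of the 10 genes. Red marks the 13 that were lower and green the 1 that was higher at an adjusted p of 0.05, grey the 11 that did not pass, and squares the brightest probe set of a gene.

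Sypl2 had the largest fall of the 10 genes. Its 1 tested probe set (1449206_at) gave 3821, 3842, 3784 and 4122 in control and 279, 238, 399 and 391 in hypoxia. Control arrays were close together, and no hypoxia array came near them. The mean dropped from 3892 ± 155 to 327 ± 80.6 (SD, n = 4 per group), a log2 change of -3.54 ± 0.18 (SE, adjusted p = 9.67e-08 by limma). It was the 57th largest fall among the 27022 tested probe sets and kept its call in all 19 alternatives (-3.64 to -3.36). Within arrays Sypl2 minus Jph2 moved by -1.34 (exact permutation p = 0.0286, adjusted 0.0365).

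Trdn, whose product links the release channel to calsequestrin inside the reticulum, had 6 probe sets that split by the sequence they were designed on. The 3 designed on 1 shared source sequence were bright, and all fell. The brightest (1426143_at) read 31088, 37969, 38115 and 38317 in control and 22436, 15769, 15549 and 19425 in hypoxia, without overlap, and fell by 1.00 ± 0.15 (SE) on the log2 scale (adjusted p = 3.56e-04 by limma). The other two fell by 1.23 ± 0.16 (1426144_x_at) and 1.18 ± 0.21 (1426142_a_at), also without overlap. They share a source with the brightest and are not independent of it. Even so, the changes of the brightest and of 1426144_x_at differed by 0.23 without overlap (exact permutation p = 0.0286, adjusted 0.0365).

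The 3 Trdn probe sets on other source sequences were dimmer, with mean signals from 150 to 1379 in control, and none passed. Their log2 changes were -0.38 (1451801_at, adjusted p = 0.181), 0.30 (1451940_x_at, adjusted p = 0.294) and 0.49 (1426134_at, adjusted p = 0.172, all by limma), and their groups overlapped. The change of the brightest probe set differed from each of them, by -0.63, -1.30 and -1.49, without overlap (exact permutation p = 0.0286 for each, adjusted 0.0365). The suffix _x_at, which the bright 1426144_x_at carries too, marks probe sets that may bind other sequences in part. Set against the brighter Ryr1 probe set, the brightest Trdn probe set moved by -0.58 (exact permutation p = 0.0286, adjusted 0.0365). The dimmer Ryr1 probe set fell by 1.08, no less than the brightest Trdn probe set, and was not paired with it. The difference between Trdn and Ryr1 therefore rests on the brighter Ryr1 probe set.

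Asph encodes several proteins from 1 gene, among them an aspartyl beta-hydroxylase and the triad protein junctin, and which of them each probe set reads was not given in the sources used here. Of its 6 probe sets 1 fell and 5 did not pass. The brightest (1425275_at) read 9068, 10988, 8487 and 11059 in control and 10925, 7827, 11963 and 9828 in hypoxia, with overlapping groups. Its log2 change was 0.03, with a 95% interval from -0.32 to 0.37. The next brightest (1425274_at), on the same source sequence, gave 9610 to 12155 in control and 6496 to 10343 in hypoxia, a change of -0.46 ± 0.17 that did not pass (adjusted p = 0.0637 by limma, and 0.0181 without hypoxia 3). Although both carry 1 source, their changes differed by 0.49 without overlap (exact permutation p = 0.0286, adjusted 0.0365).

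The Asph probe set that fell was a dim one (1450058_at), at 240 to 310 in control and 107 to 194 in hypoxia (log2 change -1.01 ± 0.24, adjusted p = 0.00758 by limma). The other 3 were dim as well, with control means from 68.1 to 416, and changed by -0.12, 0.16 and 0.85 without passing. Of these, 1420959_at was designed on the same source sequence as the one that fell, and it gave -0.12 (adjusted p = 0.734 by limma). Within arrays, Asph minus Trdn on their brightest probe sets rose by 1.03 (exact permutation p = 0.0286, adjusted 0.0365).

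**Figure D3:**
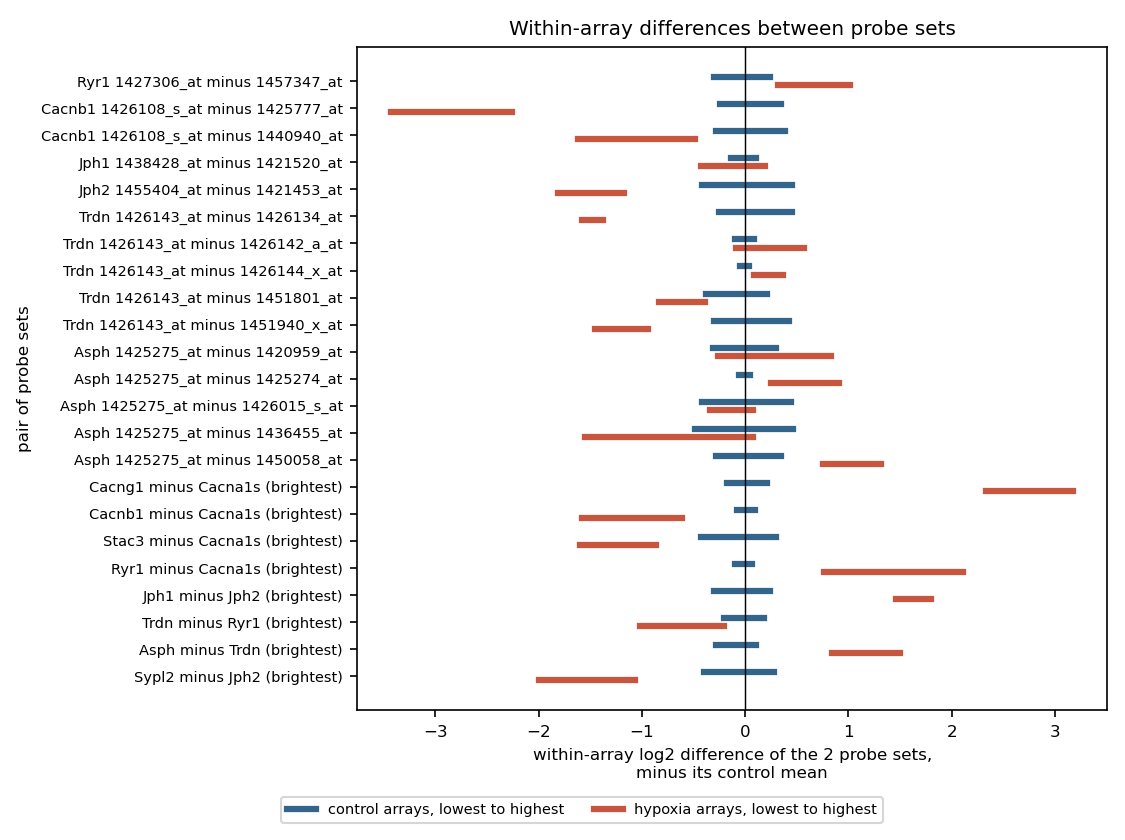
Within-array log2 difference between a pair of probe sets, shifted so that its control mean is 0, for 15 pairs within a gene and 8 between genes. Bars run from the lowest to the highest array of a group, blue for control and red for hypoxia, and the colours are apart in 18 of the 23 pairs.

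Over the 23 pairs, 10 of 15 within a gene and 8 of 8 between genes changed unequally (exact permutation test with adjustment over the pairs, adjusted p = 0.0365 for each). For Cacng1 against Cacna1s that outcome was fixed by their opposite changes without overlap. Over the whole array 22.2% of 9583 such pairs within a gene did not overlap. Between genes, the differences of the brightest probe sets of all other genes did not overlap in 83.8% against Cacna1s, 91.9% against Jph2, 57.5% against Trdn and 29.2% against Ryr1. Separation from Cacna1s, Jph2 or Trdn was therefore common among all genes, and separation from Ryr1 less so. Ryr1 was paired with Cacna1s and Trdn, so its pairs fall under those shares too, and they used its brighter probe set. The 5 that did not pass were the Jph1 pair, the brightest Trdn probe set against 1426142_a_at, and 3 Asph pairs (adjusted p = 0.208 to 0.629), which does not show that these moved alike. Without hypoxia 1 the differences were again apart in 18 of the 23.

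The genes whose array-by-array values were most like those of Ryr1 and Cacna1s were found by the root mean square difference of log2 values over the 8 arrays, each gene centred on its own mean. For the brighter Ryr1 probe set these were Yars, the tyrosyl-tRNA synthetase (0.106), Fundc1, a mitophagy receptor (0.106), and Pex7, a peroxisomal import receptor (0.122). For Cacna1s they were Tmem160 (0.119), the kinase Stk26 (0.135) and the semaphorin Sema6c (0.136). Genes with provisional symbols were left out of this search. The values are on the log2 scale and describe likeness over arrays that form 2 groups.

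Other genes of triads, T-tubules and reticulum calcium handling were counted from a list of 40 that holds none of the 10. Of these 31 were tested on their brightest probe set, 4 were below the filter and 5 had no named probe set. With limma 20 of the 31 were lower and 2 higher at an adjusted p of 0.05, where 17.8% of all genes were lower and 14.0% higher by the same reading. The median log2 change of the 31 was -0.87, beside -0.04 for all genes. The list was chosen with earlier results of these data known, so these shares describe it and do not test it. Without hypoxia 1 the counts were again 20 and 2.

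**Figure D4:**
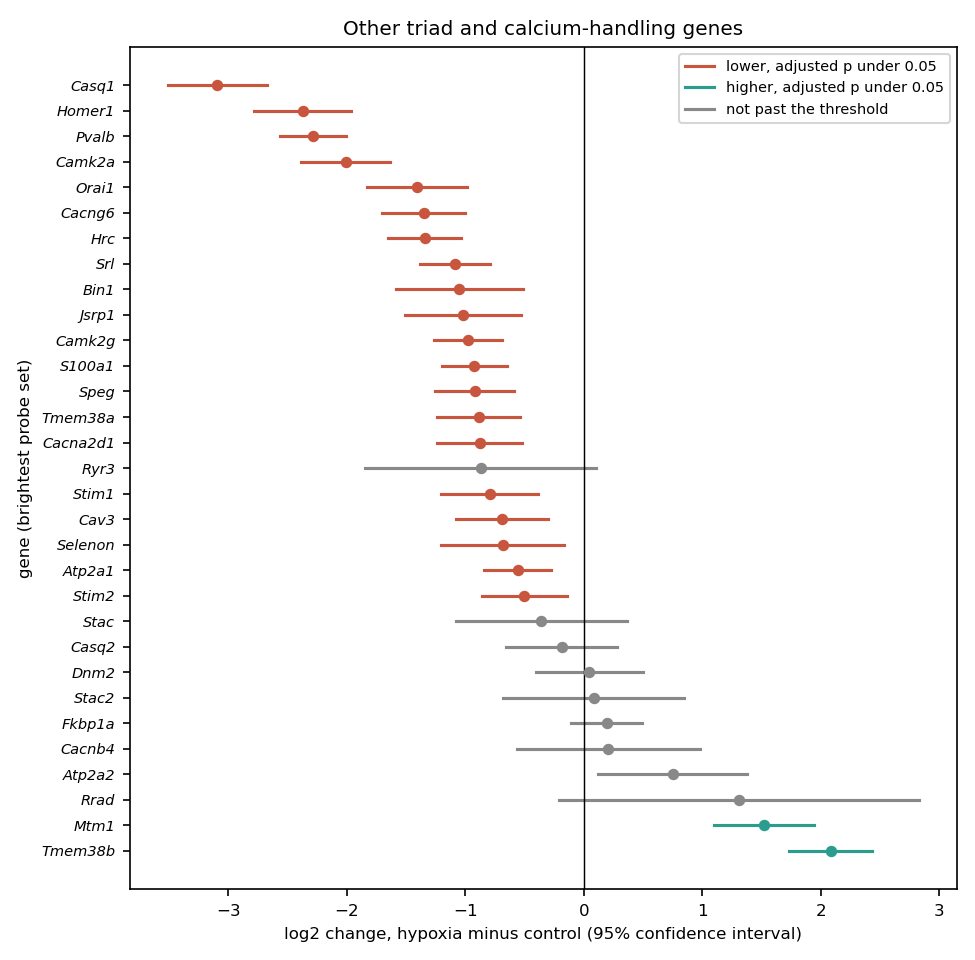
Log2 change, hypoxia minus control, with its 95% confidence interval for the 31 other triad and calcium-handling genes that were tested, each on its brightest probe set, ordered by the change. Red marks the 20 lower, green the 2 higher and grey the 9 that did not pass.

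Among those that fell were proteins that store or buffer calcium. Casq1, the calsequestrin of fast fibres to which triadin links the release channel, fell by 3.10 ± 0.19 (SE) on the log2 scale, from 33810 ± 3218 to 4061 ± 1214 (SD, n = 4 per group, adjusted p = 4.39e-07 by limma). Pvalb, the cytosolic buffer parvalbumin, fell by 2.28 ± 0.13. Hrc, a histidine-rich calcium-binding protein of the reticulum that binds triadin, fell by 1.34 ± 0.14, from 13337 ± 549 to 5298 ± 883. Casq2, the calsequestrin of heart and slow fibres, changed by -0.19 and did not pass (adjusted p = 0.566 by limma).

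Homer1, Camk2a and Cacng6 completed the 6 genes with the smallest p among those that fell. Homer1, a scaffold that can bind ryanodine receptors, fell by 2.37 ± 0.19 on the log2 scale, from 6198 ± 710 to 1207 ± 310. Camk2a, which encodes a calcium-dependent kinase, fell by 2.01 ± 0.17. Cacng6, a second gamma subunit gene of muscle calcium channels, fell by 1.35 ± 0.16 from 2413 ± 292 to 940.2 ± 150.1, the opposite of Cacng1. Their adjusted p values by limma were 2.54e-06, 5.14e-06 and 6.41e-05.

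The 2 that rose were Tmem38b and Mtm1. Tmem38b encodes TRIC-B, a potassium channel of the reticulum, and rose by 2.08 ± 0.16 (SE) on the log2 scale, from 3582 ± 678 to 15129 ± 1884 (adjusted p = 2.23e-06 by limma). Its 3 other tested probe sets rose as well, by 1.03 to 2.37. Its relative Tmem38a, which encodes the TRIC-A form of muscle, changed by -0.89 ± 0.16 and passed (adjusted p = 0.00138 by limma, named after its value was seen). Mtm1, the lipid phosphatase myotubularin needed for triad structure, rose by 1.52 ± 0.19 (adjusted p = 1.11e-04 by limma), but its 2 other tested probe sets changed by -0.78 and 0.02 without passing, so its rise is uncertain.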

How the data were processed

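Total RNA from 8 quadriceps samples was measured, 1 array per sample. Per the submitters' processing notes the authors used MAS5 (its version is not given), and each deposited number is a linear signal intensity of a probe set. Every array had the same 2% trimmed mean (500.0), so the authors' scaling was kept. MAS5 subtracts mismatch signal, which makes dim values noisy. The probes of these arrays lie toward the 3' end. The number of arrays limits the precision.

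Of 45101 probe sets, 64 controls and the 40% with the lowest mean were left out. Signals were taken as log2(signal + 16), which understates changes of dim probe sets, and compared with limma 3.58.1 (R 4.3.3) by lmFit, then eBayes with a trend, without a block and two-sided. The annotation gave 1 symbol for 34958 probe sets, several for 932, and did not list 9211. Pairs of probe sets were compared by exact permutation tests (scipy 1.17.1). Every probe set of the 10 genes was named, and of the other list up to 6 genes per direction with the smallest p, plus Casq2 and Tmem38a, chosen after their values were seen. For likeness the 3 nearest genes were named, with provisional symbols (such as Rik, Gm or LOC) left out. The procedure was tested on simulated data. The members and lists were chosen with earlier results of these data known. Alternatives were other normalizations, pseudocounts, filters, units and variance models, array weights, a replicate block and leaving out each array.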

Additional observations from a re-analysis of the deposited data

Results flagged for a closer look

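In groups of 4 arrays a value is listed here where its gap to the nearest other array is above Dixon's 95% critical value as a share of the group's range. Chance gives this for about 1 in 20 groups, and it occurred in 4 of the 50 groups of the 25 tested probe sets. Control 3 read 159 for Cacnb1 1425777_at, where the other control arrays read 268 to 281. Control 4 read 1341 for Jph2 1421453_at, where the others read 1083 to 1106. Control 1 read 31088 for the brightest Trdn probe set, where the others read 37969 to 38317. Hypoxia 3 read 194 for Asph 1450058_at, where the others read 107 to 115. The 3' to 5' ratio of hypoxia 1 stood apart for Gapdh (3.44, others 0.801 to 0.874) and beta-actin (2.53, others 1.40 to 1.59).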

How the results depend on the processing

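Over 19 alternatives the 10 genes had 12 to 14 lower probe sets, except 11 with a 60% filter, which left 2 of the 13 untested, and 7 with 1 probe set per gene, where the median was -1.35. In each, 1 was higher (Cacng1). The median of -0.53 was -0.40 after median centring, where the median of all probe sets moved from -0.04 to 0.08, and -0.65 to -0.43 with 1 array left out. The share of all called probe sets that were higher was 43.2% as deposited and 54.8% after median centring, and the split of these genes was then 12 lower and 1 higher. Of 14 called probe sets 13 kept direction and call wherever they were tested, the exception being Jph1 1438428_at. Sign changed in 3 that were never called: Cacnb1 1425777_at (0.023 with array weights, 0.12 after median centring, 0.10 after quantile normalization, -0.188 to 0.0992 with 1 array left out), Asph 1425275_at (-0.0321 with array weights, -0.025 after quantile normalization, -0.0594 to 0.144 with 1 array left out) and Asph 1420959_at (0.00665 after median centring, -0.25 to 0.0663 with 1 array left out). Jph1 minus Jph2 moved by 0.218 rather than 1.68 with the dimmer Jph2 probe set, chosen after seeing the data. The causes were not tested. The other list gave 17 to 20 lower and 2 or 3 higher. With the replicate block 12 member probe sets were lower and 1 higher. Same-numbered arrays did not deviate together (r from -0.07 to 0.01), which shows no pairing by number but cannot exclude one. Without hypoxia 1 the exact test of pairs cannot pass.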
